A study of Mus musculus with 17 samples.

Results

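The α-globin locus was compared between primary erythroid cells with 4 CTCF sites removed (QuadDel, 3 libraries) and wild-type cells (WT, 3 libraries). Of these sites, θ1 lies between the adult α-globin genes, and θ2, HS+44 and HS+48 lie downstream of them. These 6 libraries, of 17 in the series, were chosen by their labels: the QuadDel libraries carry the genotype Dt1t24448, with deletion or mutation of θ1, θ2, HS+44 and HS+48, and both groups are Ter119+ cells. By the study's methods, the cells of both groups were taken by magnetic selection from the spleens of adult C57BL/6J mice treated with phenylhydrazine, an agent that causes haemolysis and fills the spleen with erythroid cells. The QuadDel mice were homozygous and came from 1 edited line, in which a line already altered at θ1 and θ2 was targeted again to remove HS+44, HS+48 and the sequence between them. Ter119 is a surface marker of late erythroid cells, and since the libraries hold DNA and not RNA, the cell type could not be checked against marker genes. Interactions were measured by Capture-C: chromatin was fixed and cut with DpnII, ligated, and the ligation products of chosen fragments, called viewpoints, were captured and sequenced. Each library held between 287635 and 379336 unique interactions over all viewpoints, and each α-globin viewpoint held between 13619 and 33690 interactions on chromosome 11 outside its own fragment and both neighbours. Values below are interactions per 100,000 such cis interactions, and a percentage is a share of the same total.

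The 6 viewpoints lie on chromosome 11 (mm9). HS39 (32137176 to 32137426) and HS38 (32138079 to 32139000) lie at CTCF sites at the upstream edge of the α-globin sub-TAD. Their names are used as deposited, although the pair looks exchanged against the positions the paper gives. R1 (32145277 to 32146568) and R2 (32151060 to 32151883) are the strongest of the α-globin enhancers, and like HS38 and HS39 they overlap Nprl3, a gene of the GATOR1 complex. Hba-1 (32182969 to 32183821) and Hba-2 (32195804 to 32196638) lie over the starts of Hba-a1 and Hba-a2, the adult α-globin genes. These genes are near-identical copies, and how well the counts of Hba-1 and Hba-2 were told apart was not tested. All 6 viewpoints were read in the same 6 libraries. A count of viewpoints below is therefore not a count of independent results. As background, cohesin is thought to extrude chromatin loops until it meets CTCF bound in the facing orientation, so that convergent CTCF sites mark the edges of topologically associating domains (TADs). In erythroid cells the enhancers and the α-globin genes lie in a self-interacting sub-TAD, which has CTCF sites on both flanks. The sub-TAD is nested in a larger TAD. Past the downstream end of the larger TAD lie Sh3pxd2b, which encodes an adaptor of podosomes, and Ubtd2, which encodes a ubiquitin-like domain protein.

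The 4 removed sites share a core sequence, which is shown because the results turn on what was removed and on what lies next downstream. The motif searched, on both strands of the mm9 sequence, was CC, then 4 bases of any kind, GGGGG, 1 base of any kind and GC. On chromosome 11, 8.10% of windows as long as the one searched around the globin genes hold this motif, and 5.19% of windows as long as the HS+44/+48 window. In these windows it matched at the 4 sites and nowhere else, each time on the minus strand. The motif follows the core that the removed sites share, so its match at them was not a test. It had no match in the window of the CTCF sites at the upstream edge of the sub-TAD. A missing match therefore does not show that a CTCF site is absent. The θ1 motif (chr11:32186932-32186945) lies 19 bases before the annotated start of Hbq1b and the θ2 motif (chr11:32200037-32200050) 18 bases before that of Hbq1a, both θ-globin genes. The HS+44 motif (chr11:32221393-32221406) and the HS+48 motif (chr11:32224840-32224853) are intergenic and 3433 bases apart. The sequences are given 5′ to 3′ on the minus strand with the motif in capitals and 8 bases on each side, and those of θ1 and θ2 are identical.
θ1: acaagaggCCGCCAGGGGGCGCtgcatcgt
θ2: acaagaggCCGCCAGGGGGCGCtgcatcgt
HS+44: tatagtggCCTGCAGGGGGCGCcccagaga
HS+48: gagtcccgCCACACGGGGGTGCtcgtcgcc

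The next CTCF sites downstream, HS+65 and HS+66, lie at the end of the TAD and were not edited. In their window (chr11:32235768-32245872) the first motif had no match. A second motif, CC, 3 bases of any kind, AG, 2 of any kind, GGC, 1 of any kind and C, also matches the θ1, θ2 and HS+44 cores and once more beside HS+44. Like the first motif, it had no match in the window of the CTCF sites at the upstream edge of the sub-TAD. In the HS+65/66 window it was found 4 times, whereas 25.1% of chromosome 11 windows of that length hold it at least once. CTCF binding at these matches was not tested. The matches are shown to let their fragments be followed below. They start at 32238784 on the plus strand, at 32241292 on the minus strand, and at 32242906 and 32242942 on the plus strand, in that order, and each is written 5′ to 3′ on its own strand. They lie in 3 DpnII fragments, the last pair sharing one.
HS+65/66, match at 32238784: gattcgagCCCACAGTGGGCACcaaatacc
HS+65/66, match at 32241292: caatctctCCTGCAGGTGGCGCccttccgc
HS+65/66, match at 32242906: cacaccagCCTGCAGAGGGCGCcctcagtg
HS+65/66, match at 32242942: tacaccagCCTGCAGGGGGCACcatggaga

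The removed sequence was examined first. Over the 6 viewpoints, the 8 fragments that lie wholly between the HS+44 and HS+48 motifs (chromosome 11, 32221719 to 32224324) held 16, 21 and 18 interactions in QuadDel libraries against 345, 420 and 477 in WT libraries. By viewpoint, the scaled QuadDel value was between 2.66% (Hba-1) and 7.89% (R2) of the WT value. Each of the 8 fragments kept between 1 and 11 interactions in QuadDel, against 47 to 239 in WT, so the loss ran over the whole segment. The source of the remaining interactions was not tested.

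The fragments that carry the edited sites were read in the test of single fragments, which used edgeR's quasi-likelihood test on the counts and a Benjamini-Hochberg adjusted p under 0.05 within each viewpoint. Of 2070 combinations of fragment and viewpoint tested, 2.75% rose (57) and 2.13% fell (44) in QuadDel. The balance turned in the DESeq2 Wald test (17 and 34), at an adjusted p under 0.01 (24 and 35) and with a mean count of at least 20 (4 and 18). The θ2 fragment (32199493 to 32200137), which holds the start of Hbq1a, fell from 4 of 6 viewpoints. From HS38 it held 111, 143 and 138 interactions per 100,000 in QuadDel libraries against 301, 250 and 296 in WT libraries. The groups did not overlap, and the change was -1.12 ± 0.23 (log2, SE, edgeR adjusted p = 0.000983). From R1 the values were 155, 139 and 152 in QuadDel against 285, 311 and 371 in WT, a change of -1.12 ± 0.23 (log2, SE, edgeR adjusted p = 0.000135). From HS39 the log2 fold change was -1.10 and from Hba-2 it was -0.59, and both passed the test. From R2 and Hba-1 the groups overlapped, with log2 fold changes of -0.13 (SE 0.21) and -0.16 (SE 0.17). The difference between these viewpoints was not tested.

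The θ1 fragment (32186469 to 32187032) fell from HS38 and R1. From R1 it held 262, 263 and 284 interactions per 100,000 in QuadDel libraries against 400, 528 and 540 in WT libraries, with no overlap, a change of -0.88 ± 0.18 (log2, SE, edgeR adjusted p = 0.000135). From the other 4 viewpoints its log2 fold change was between -0.59 and -0.21 and did not pass. The edit at θ2 adds a DpnII cut within its fragment and that at θ1 removes bases from its own, and the part of these edits in the counts was not tested. The HS+44 fragment (32220920 to 32221718) had log2 fold changes between -2.004 and -0.78 and passed only from HS38, where it held 32.4, 19.7 and 45.9 in QuadDel and 151, 117 and 122 in WT. The HS+48 fragment (32224325 to 32227296) had log2 fold changes between -1.10 and -0.19 and passed from 0 of 6 viewpoints at an adjusted p under 0.05. Both extend into sequence that the deletion is designed to remove.

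The fragments of the HS+65/66 window moved the other way. The fragment with the minus-strand match (32240738 to 32242084, intergenic) rose from 4 of 6 viewpoints. From Hba-1 it held 61.0, 86.3 and 78.5 interactions per 100,000 in the QuadDel libraries against 18.9, 10.4 and 11.9 in the WT libraries. Every QuadDel library lay above every WT library, with a change of 2.43 ± 0.46 (log2, SE, edgeR adjusted p = 0.000192). From Hba-2 the values were 83.3, 58.3 and 60.1 against 3.80, 20.6 and 11.9, a change of 2.42 ± 0.45 (log2, SE, edgeR adjusted p = 0.000931). The fragment with a pair of plus-strand matches (32242419 to 32243039) also rose from 4 of 6 viewpoints, and its 6 log2 fold changes lay between 1.14 and 2.04. The fragment with the first match (32238687 to 32239517) had log2 fold changes between 0.78 and 2.29 and passed from HS38 only. A neighbouring fragment with no match (32240360 to 32240737) was among the 3 fragments with the smallest p from both HS39 and R2, with log2 fold changes of 2.33 (SE 0.41) and 2.05 (SE 0.54). The rise therefore covered fragments with and without a match. Most of these counts were small, with 5 to 34 interactions over the 3 WT libraries in a fragment with a match, which limits the precision of single fragments.

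**Figure D1:**
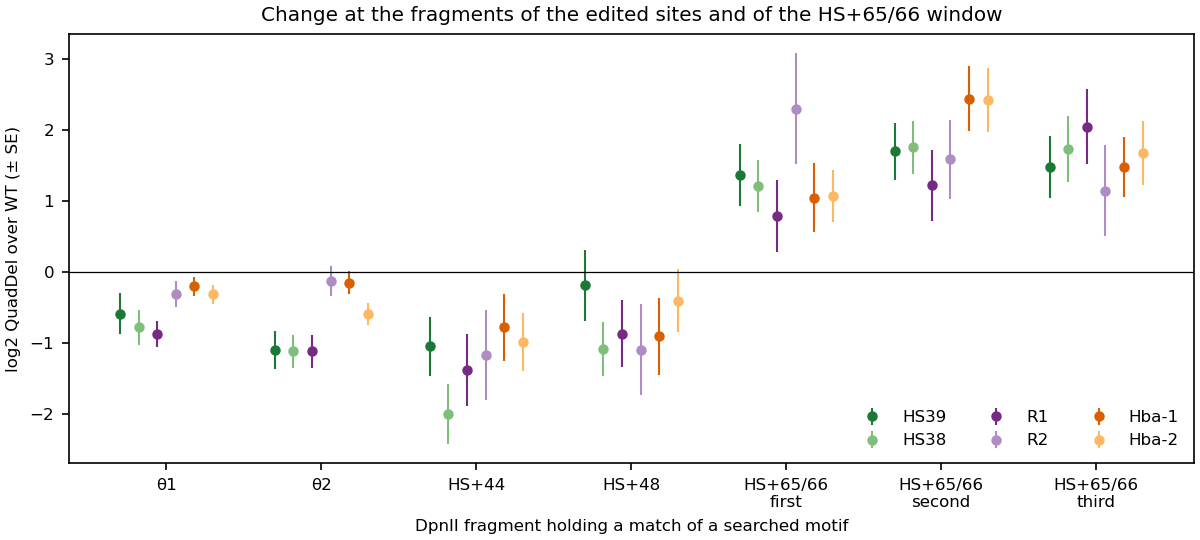
Change at the fragments of the edited sites and of the HS+65/66 window. Points are log2 fold changes of QuadDel over WT (y axis) with their standard errors, coloured by viewpoint, for each fragment that holds a match of a searched motif (x axis); all 24 points at θ1, θ2, HS+44 and HS+48 lie below 0 and all 18 points of the HS+65/66 window above it.

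Summed over the whole HS+65/66 window, interactions rose from 6 of 6 viewpoints, and the rise carried on past the end of the TAD. For this the chromosome was divided into 14 regions. Of the 84 combinations of region and viewpoint, 41.7% rose and 26.2% fell (edgeR, adjusted p under 0.05 over all 84). From R2, the HS+65/66 window held 705, 675 and 508 interactions per 100,000 in QuadDel libraries against 178, 197 and 209 in WT libraries. The lowest QuadDel library was above the highest WT library, and the change was 1.70 ± 0.18 (log2, SE, edgeR adjusted p = 1.27e-08). From Hba-1 the window held 586, 704 and 658 against 208, 195 and 211, a change of 1.66 ± 0.11 (log2, SE, edgeR adjusted p = 5.56e-20). From HS39 it held 1580.0, 1124 and 1197 against 433, 401 and 626, a change of 1.40 ± 0.22 (log2, SE, edgeR adjusted p = 3.39e-06). The shorter stretch between HS+48 and HS+65 rose less, with log2 values from 0.33 to 0.89, and passed from 6 of 6 viewpoints, or from 4 with the replicate number as a block. The call was lost from HS39 without QuadDel replicate 1 or 2 or WT replicate 1 or 2, from HS38 without QuadDel replicate 2 or WT replicate 3, and from R2 without replicate 2 of either group.

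When the window was compared between pairs of viewpoints within each library, the log2 difference in gain over the 15 pairs lay between -0.32 (HS38 minus R2) and 0.07 (HS39 minus HS38). QuadDel and WT libraries overlapped for 15 of 15 pairs, and the lowest adjusted p of the exact two-sided permutation test was 0.9. With 3 against 3 libraries this test cannot give a p below 0.1, so it could not have passed at 0.05. Over the region from the TAD end across Sh3pxd2b, 0 of 15 pairs were without overlap, with differences between -0.30 and 0.17. The lowest adjusted p of the exact permutation test there was 0.64. Over the region from Ubtd2 to Fbxw11 (32329897 to 32600176), 5 of 15 pairs did not overlap, with differences between -0.28 and 0.36. The lowest adjusted p there was 0.3 in the exact permutation test. The 15 pairs share viewpoints and libraries and are not independent, so no difference between viewpoints was read from them.

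**Figure D2:**
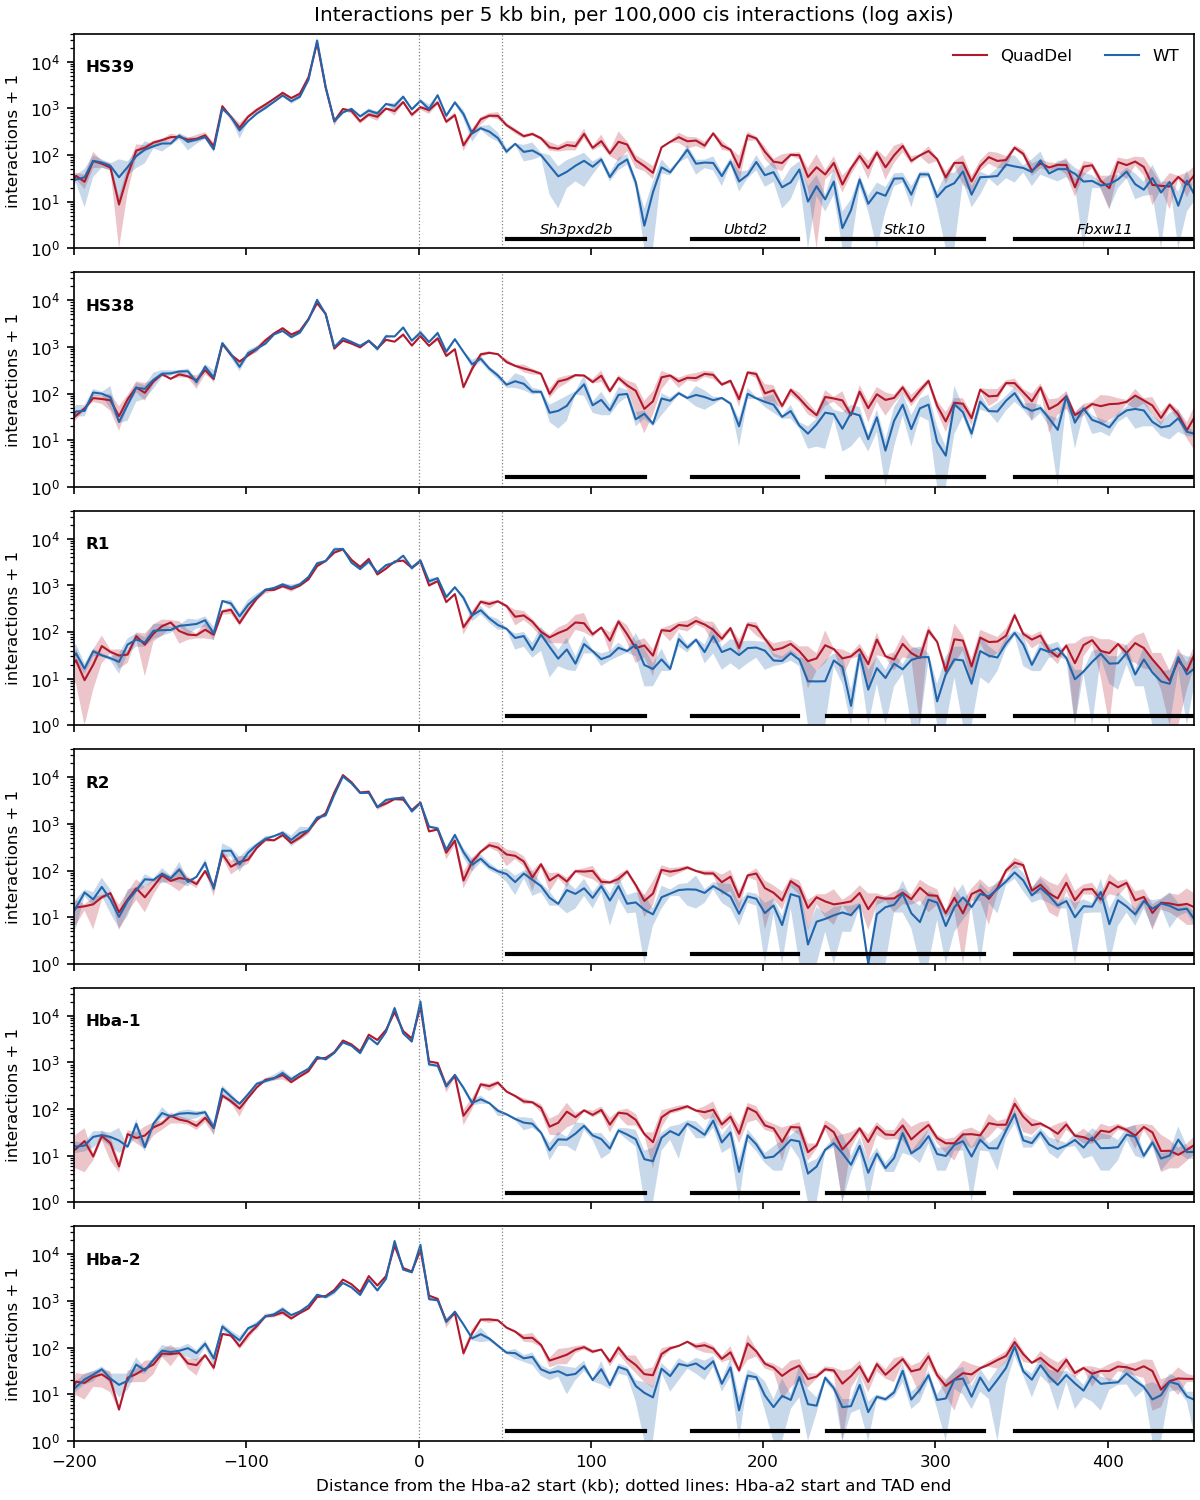
Interaction profiles of the 6 viewpoints. Lines are group means of 3 libraries and shading runs from the lowest to the highest library, in interactions per 100,000 cis interactions plus 1 per 5 kb bin (y axis, log scale) against distance from the Hba-a2 start (x axis, kb); QuadDel (red) lies above WT (blue) from about the TAD end (second dotted line) across Sh3pxd2b, Ubtd2 and Stk10.

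Beyond the TAD end, 4 genes rose from 6 of 6 viewpoints. Gene bodies were tested with edgeR from each viewpoint, and of 1401 combinations of gene and viewpoint on chromosome 11, 2.14% rose and 0.357% fell. Among the 7 genes listed downstream of the locus, 26 of 42 combinations rose and 0 fell at an adjusted p under 0.05, with a median log2 fold change of 1.22, against 0.08 over all 1401. Sh3pxd2b (32247820 to 32328173) rose from 6 of 6 viewpoints, with log2 values from 1.22 to 1.54. From Hba-1 it held 1521, 1492 and 1251 interactions per 100,000 in QuadDel and 419, 550 and 502 in WT. From R1 it held 1991, 2159 and 1897 against 821, 780 and 627. The lowest QuadDel library lay above the highest WT library from both viewpoints, and the changes were 1.54 ± 0.11 and 1.45 ± 0.11 (log2, SE, edgeR adjusted p = 1.57e-37 and 2.68e-32).

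Ubtd2 (32355370 to 32416687) rose as much, by log2 fold changes from 1.21 to 1.67 over 6 of 6 viewpoints. From HS39 it held 1883, 1761 and 1924 interactions per 100,000 in QuadDel and 604, 623 and 523 in WT, a change of 1.67 ± 0.13 (log2, SE, edgeR adjusted p = 1.19e-29). From Hba-2 it held 776, 947 and 755 against 209, 258 and 336, a change of 1.61 ± 0.12 (log2, SE, edgeR adjusted p = 4.33e-34). Thus both an upstream CTCF site and an α-globin promoter met Ubtd2 more often in each QuadDel library than in any WT library.

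Stk10 (32433305 to 32524587), which encodes a serine/threonine kinase, also rose from 6 of 6 viewpoints, but by amounts that ranged more widely, from 0.73 to 1.78 on the log2 scale. From HS39 it held 1225, 1551 and 1278 interactions per 100,000 in QuadDel and 335, 463 and 385 in WT, a change of 1.78 ± 0.15 (log2, SE, edgeR adjusted p = 4.09e-27). From R2 it held 486, 468 and 403 against 322, 268 and 236, a change of 0.73 ± 0.18 (log2, SE, edgeR adjusted p = 0.00217). The R2 call was lost without QuadDel replicate 2, WT replicate 2 or WT replicate 3. For Stk10 alone, the difference between viewpoints was not tested.

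Fbxw11 (32542724 to 32646816), which encodes an F-box protein of a ubiquitin ligase, rose less, by log2 fold changes from 0.54 to 0.85 over 6 of 6 viewpoints. From HS38 it held 1410.3, 1210.2 and 1253 interactions per 100,000 in QuadDel and 716, 666 and 760.3 in WT, a change of 0.85 ± 0.10 (log2, SE, edgeR adjusted p = 9.46e-05). The groups did not overlap from HS38. From HS39 the change was 0.54 ± 0.14 (log2, SE, edgeR adjusted p = 0.00855), and that call was lost under the DESeq2 Wald test, with the replicate number as a block, with a narrower exclusion zone and without 4 of the 6 libraries in turn (QuadDel replicates 1 and 2, WT replicates 1 and 2). Efcab9 (32422751 to 32432081), a short gene for a sperm calcium sensor, had log2 fold changes from 1.47 to 2.25 on 8 to 22 WT interactions and passed from HS38 and R1 only, and from 0 of 6 viewpoints with the replicate number as a block. Farther away, Fgf18, a growth factor gene, and Npm1, a nucleolar protein gene, passed from 0 of 6 viewpoints at an adjusted p under 0.05, with log2 fold changes from 0.05 to 1.57 and from -0.61 to 0.89.

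**Figure D3:**
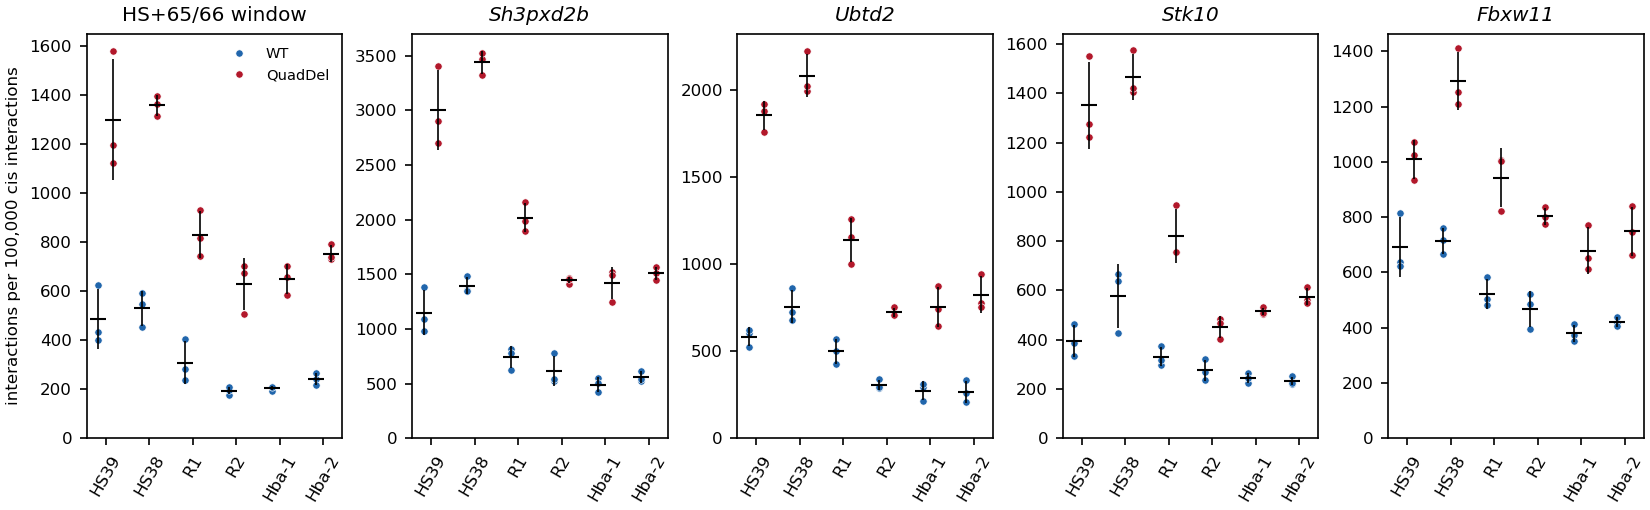
Interactions of the HS+65/66 window and 4 downstream genes in each library. Points are libraries, in interactions per 100,000 cis interactions (y axis) by viewpoint (x axis), with the mean (bar) and SD (line) of 3 QuadDel (red) and 3 WT (blue) libraries; in each panel the QuadDel points lie above the WT points of the same viewpoint.

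The ratio was highest, by its median over viewpoints, in the first 250 kb past the TAD end. In steps of 50 kb, the ratio of the QuadDel to the WT mean had a median over the 6 viewpoints of 2.76 in the first step, 2.84 in the second, 2.79 in the third, 2.40 in the fourth and 2.73 in the fifth. Between 250 and 450 kb the medians lay between 1.78 and 1.92. In the step from 450 to 500 kb the ratio ran from 0.687 to 1.65 over the viewpoints, with values on both sides of 1. It was above 1 from 6 of 6 viewpoints from 500 to 550 kb (1.02 to 5.27, median 1.61) and from 550 to 600 kb (1.09 to 2.56, median 2.04), where the QuadDel libraries lay above every WT library from 2 and 4 viewpoints. From 600 to 650 kb it ran from 0.625 to 1.42, again on both sides of 1. In bins of 5 kb, tested where the mean count was at least 5, 18.3% of 1266 combinations of bin and viewpoint rose and 3.08% fell. Between the TAD end and the end of Sh3pxd2b, 76 of 100 tested bins rose, and between there and a point inside Fbxw11 119 of 253. Over the same stretches 0 bins fell. Between there and 33150109, 7 of 37 rose, 0 of them from R2. The farthest bin that rose before 33150109 ended between 355 kb (R2) and 390 kb (HS38) past the TAD end. Only these 37 reached the count minimum in that stretch, so depth limits how far out a gain could be seen. Summed over that stretch (32600177 to 33150109), interactions rose from 6 of 6 viewpoints with log2 values from 0.35 to 0.74 (4 of 6 with the replicate number as a block), and over the rest of the chromosome beyond they differed by -0.13 to 0.09 and passed from 0 of 6. The bin with the highest called change lay over Stk10 from HS39 (2.93), HS38 (3.55) and R1 (4.55), over Fbxw11 from R2 (3.06) and over Ubtd2 from Hba-1 (2.42) and Hba-2 (2.91), each on 1 to 7 WT interactions. The lowest was the 5 kb bin that starts at 32220001, over the deleted segment, from HS39, R1, R2 and Hba-1, and lay far from the locus from HS38 (53590001 to 53595000, where WT replicate 1 held 25 of 29 WT interactions and the groups overlapped) and Hba-2 (30875001 to 30880000, 26 WT interactions). With DESeq2 size factors, which lower the median log2 fold change over all bins by 0.23, 166 bins rose and 128 fell, and with TMM factors, which lower it by 0.12, 188 rose and 73 fell, compared with 232 and 39 when scaled to the cis total.

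**Figure D4:**
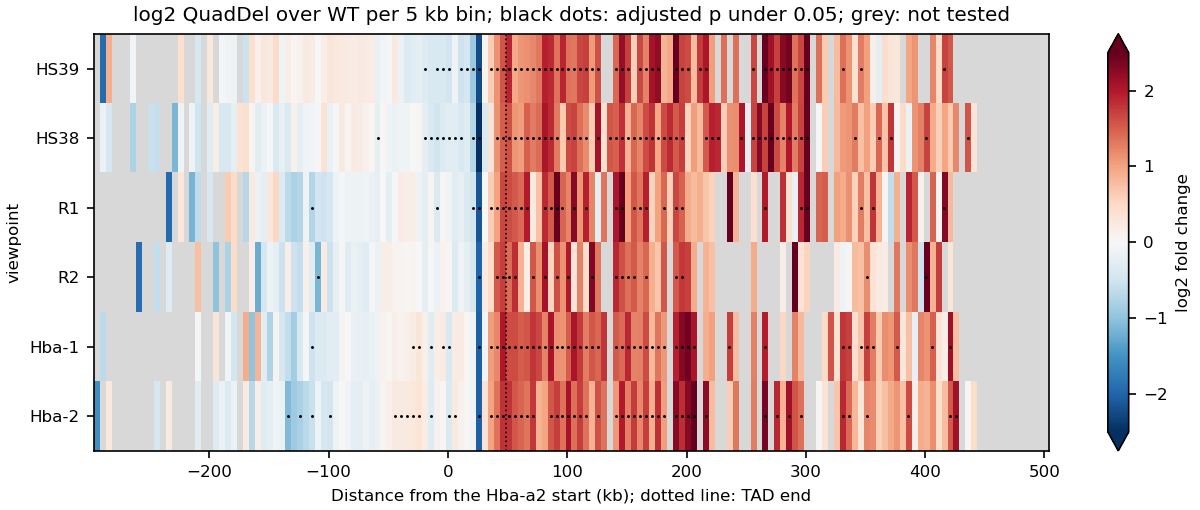
Change per 5 kb bin. Colour is the log2 fold change of QuadDel over WT for each viewpoint (y axis) against distance from the Hba-a2 start (x axis, kb), with black dots where the edgeR adjusted p was under 0.05 and grey where the count was too low to test; a band of higher bins (red) starts between the deleted segment (blue column) and the TAD end (dotted line) for all 6 viewpoints.

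As a share of all cis interactions, contacts in the 1 Mb past the TAD end were higher in QuadDel. From HS38, they made up 11.1%, 10.8% and 11.7% in QuadDel libraries against 4.65%, 4.76% and 5.07% in WT libraries. From R2, they made up 5.16%, 5.17% and 4.79% against 2.45%, 2.58% and 2.80%. From Hba-2, they made up 5.46%, 5.34% and 5.22% against 1.99%, 2.39% and 2.46%. The ratio of means was between 1.93 (R2) and 2.41 (HS39) over the 6 viewpoints. QuadDel and WT did not overlap from any of them, and each gave the smallest two-sided exact permutation p that 3 against 3 libraries allow, 0.1 (0.1 after adjustment over the 6 viewpoints). In the 1 Mb before the TAD start the share differed by -1.09 to 0.04 percentage points. The difference was largest from HS38 (7.23% ± 0.294 in QuadDel and 8.33% ± 0.340 in WT, SD, n = 3) and R2 (4.66% ± 0.154 and 5.72% ± 0.242, SD, n = 3), with an exact permutation p = 0.1 each and 0.3 after adjustment.

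Shares sum to a fixed total, so a higher share downstream comes with a lower one elsewhere. Within the TAD up to and including the HS+44/+48 window, the share of cis interactions from HS39 was 63.6% ± 1.07 in WT and 58.4% ± 2.35 in QuadDel, and from Hba-2 it was 69.6% ± 1.79 and 64.6% ± 1.65 (SD, n = 3, exact permutation p = 0.1 each). From R2 the same share was 59.3% ± 0.358 in WT and 59.2% ± 1.75 in QuadDel (SD, n = 3). The HS+44/+48 window itself fell from 6 of 6 viewpoints, with log2 values from -1.16 (HS39) to -0.45 (Hba-2). With the fragments that lie wholly in the deleted segment left out, the window's log2 fold changes were between -0.81 and -0.08, and it fell from 4 of 6. The HS+44 and HS+48 fragments, which extend into removed sequence, stayed in. A change in the intact sequence alone was therefore not isolated.

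**Figure D5:**
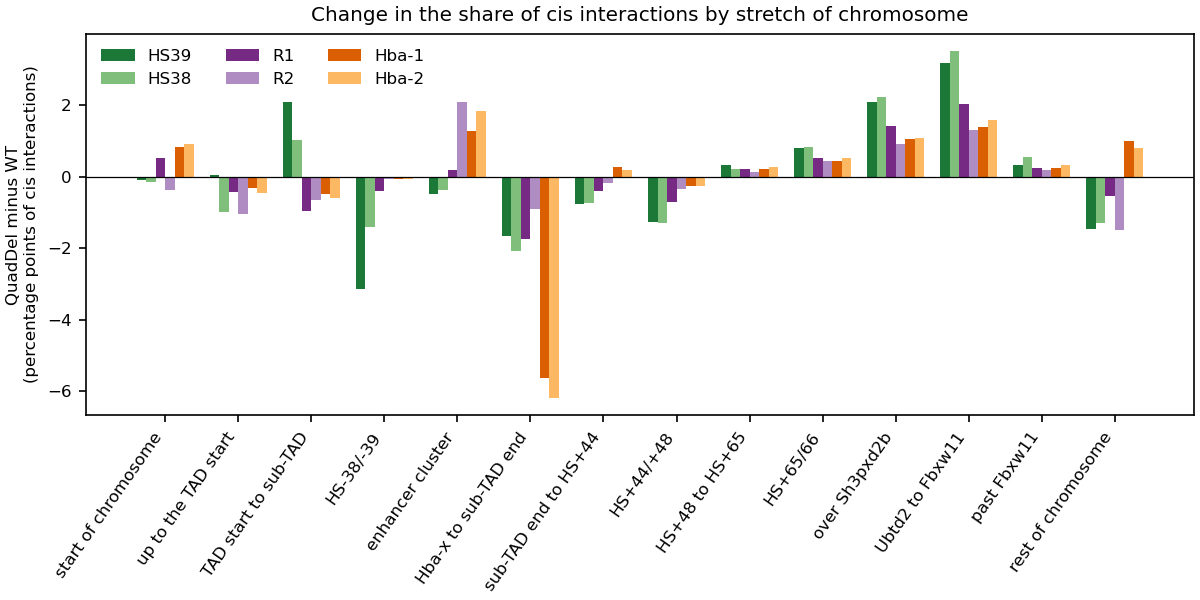
Where cis interactions were gained and lost. Bars are the difference between the QuadDel and WT mean share of cis interactions, in percentage points (y axis), for 14 stretches of chromosome 11 in order (x axis), coloured by viewpoint; the 5 stretches from HS+48 onwards to past Fbxw11 are above 0 for all viewpoints, and the largest loss, between Hba-x and the sub-TAD end from Hba-1 and Hba-2, lies in the stretch that holds those viewpoints.

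Within the sub-TAD, contacts of the upstream CTCF viewpoints with the region of the globin genes fell. From these viewpoints, HS39 and HS38, 0 single globin gene bodies passed the test of genes. The region from Hba-x, the embryonic ζ-globin gene, to the sub-TAD end (32170702 to 32203107), which includes the edited θ1 and θ2 fragments, held 6005, 6109.6 and 5977 interactions per 100,000 from HS39 in QuadDel libraries against 6970.3, 8019.5 and 8075 in WT libraries. The groups did not overlap, and the change was -0.35 ± 0.06 (log2, SE, edgeR adjusted p = 2.51e-05). From HS38 the region held 8193, 8658 and 9283 against 10704, 11229 and 10429, a change of -0.31 ± 0.06 (log2, SE, edgeR adjusted p = 2.13e-06). From R1 the change was -0.14 ± 0.05 (log2, SE, edgeR adjusted p = 0.0101), but it turned to 0.046 with a narrower exclusion zone and did not pass with TMM factors or without QuadDel replicate 2. From R2 it was -0.07 (SE 0.04, edgeR adjusted p = 0.0824). It fell from Hba-1 and Hba-2 too, by -0.17 and -0.19, but there the region holds the viewpoints' own surroundings, and both calls were lost with the replicate number as a block and without QuadDel replicate 2, that from Hba-1 also without WT replicate 1 and that from Hba-2 without QuadDel replicate 1. Between the sub-TAD end and the HS+44/+48 window, contacts fell from HS39 (-0.39), HS38 (-0.35) and R1 (-0.25) and rose from Hba-1 (0.24, SE 0.09, edgeR adjusted p = 0.017). The rise from Hba-1 did not pass with TMM factors or DESeq2 size factors.

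Contacts of the enhancers R1 and R2 with the α-globin gene bodies did not pass the test. The gene body of Hba-a1 (32183511 to 32184465) held 1112, 1093 and 1080.0 interactions per 100,000 from R1 in QuadDel libraries against 1262, 1096.5 and 1085 in WT libraries. From R2 it held 1039.8, 1021 and 1163 against 1049, 1026 and 1056. The groups overlapped from both enhancers, with log2 fold changes of -0.06 (SE 0.12) and 0.04 (SE 0.11). Hba-a2 (32196489 to 32197301) gave -0.07 (SE 0.12) from R1 and -0.003 (SE 0.11) from R2. Of the 5 globin genes, Hba-x, Hbq1b and Hbq1a passed from 0 of 6 viewpoints. Hba-a1 and Hba-a2 fell from Hba-1 and Hba-2 only, by log2 fold changes from -0.50 to -0.47, as part of 30 combinations of globin gene and viewpoint with a median of -0.19. These calls depend on the gene bounds. With 2 kb added on each side, Hba-a1, Hba-a2 and Hbq1b fell from 3 viewpoints each, Hbq1a from 2 and Hba-x from 1. For Hbq1b and Hbq1a the added sequence takes in the edited θ1 and θ2 fragments. The α-globin genes are near-identical copies, and from Hba-1 the 5 kb on either side of the Hba-2 viewpoint took 23.5% of all cis interactions in WT and 19.1% in QuadDel, so which copy those ligation products came from is uncertain.

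Of the 3 fragments with the smallest p from each viewpoint, those not yet described lie inside the domain or in the HS+65/66 window. From Hba-1, a fragment in Hba-a2 (32196655 to 32196929) held 5982, 5939 and 6503 interactions per 100,000 in QuadDel against 10937, 9134 and 8142 in WT, with no overlap between groups, a change of -0.61 ± 0.09 (log2, SE, edgeR adjusted p = 5.65e-07). Its copy in Hba-a1 (32183838 to 32184112) lies next to the Hba-1 viewpoint and changed by -0.60, and from Hba-2 the same pair of fragments changed by -0.61 and -0.60, under the same uncertainty of copy. From R1, a fragment close to the viewpoint (32146861 to 32146902, in Nprl3) changed by -0.73 ± 0.13 and from R2 an intergenic fragment before Hba-a1 (32182317 to 32182444) by -0.83 ± 0.20 (log2, SE). From HS39, a fragment where Nprl3 and Mpg overlap (32130769 to 32130940) rose by 0.91 ± 0.21 (log2, SE), with 361, 345 and 433 interactions per 100,000 in QuadDel against 243, 179 and 185 in WT. From R2, a fragment of the HS+65/66 window (32243121 to 32244878) rose by 2.44 ± 0.70 (log2, SE) on 6 WT interactions. Among the 174 tested bins from the TAD start to the HS+44/+48 window, 33 fell, and the 9 that rose were seen from Hba-2 (6) and Hba-1 (3). The falls include the bin that starts at 32220001, over the deleted segment, from at least HS39, R1, R2 and Hba-1. Over all tested bins of the chromosome, 18.3% rose and 3.08% fell.

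Seen from the other end, the enhancer cluster (32144133 to 32170701) was met more often from Hba-2. It held 12564, 12638 and 12567 interactions per 100,000 in QuadDel libraries against 10513, 10579 and 11141 in WT libraries, a change of 0.23 ± 0.06 (log2, SE, edgeR adjusted p = 0.000806). From Hba-1 the values were 13553.5, 13456.5 and 13590.2 against 12150, 11767 and 12838, a change of 0.14 ± 0.07 (log2, SE, edgeR adjusted p = 0.0543). From R2, which lies in the cluster, the log2 change was 0.09 and turned to -0.036 with a narrower exclusion zone, and from HS39 it was -0.15. With the replicate number as a block, neither of these passed, while over all 6 viewpoints 1 rise and 1 fall of the cluster did. With DESeq2 size factors a rise of the cluster passed from 0 of 6 viewpoints. From Hba-2, the 5 kb on either side of the Hba-1 viewpoint took 24.1% of cis interactions in WT and 20.7% in QuadDel. With the 5 kb around the other α-globin promoter left out, the highest log2 change of the cluster was 0.165. A rise then passed from 2 of 6 viewpoints. The fragments that are viewpoints themselves carry no counts from other viewpoints (at most 1 interaction in 6 libraries for any of 30 directed pairs), so contacts between a pair of viewpoints were read in the 2 kb on either side of the target, as a description without a test. Over 13 pairs, each read from both ends, the ratio of QuadDel to WT means was between 0.727 (HS39 to Hba-2) and 1.15 (Hba-2 to R2). Between R2 and Hba-2 the ratio was 1.15 from Hba-2 and 1.11 from R2. Between HS39 and Hba-2 it was 0.727 from HS39 and 0.867 from Hba-2, and between HS38 and Hba-1 it was 0.763 from HS38 and 0.944 from Hba-1. Other pairs differed in direction by the end they were read from, among them HS39 and R2 (1.15 from HS39 and 0.868 from R2), R1 and R2 (0.963 and 1.14), R2 and Hba-1 (0.952 and 1.08) and HS38 and R1 (1.03 and 0.866).

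Of the 5 genes listed upstream, few passed. Nprl3, one of them, reaches into the sub-TAD and overlaps the HS39, HS38, R1 and R2 viewpoints. Snrnp25, a minor spliceosome gene, Rhbdf1, an inactive rhomboid protease gene, Mpg, a DNA glycosylase gene, and Nprl3 passed from 0 of 6 viewpoints. The threshold was an adjusted p under 0.05, and their log2 fold changes were between -0.22 and 0.23. Il9r (32087541 to 32100279), the gene of the interleukin-9 receptor, fell from R1, with 607, 546 and 734 interactions per 100,000 in QuadDel and 767, 704 and 1075 in WT, which overlap, a change of -0.46 ± 0.14 (log2, SE, edgeR adjusted p = 0.0421). That call was lost with the replicate number as a block. The region between the TAD start and the sub-TAD start as a whole fell from R1, R2 and Hba-2 by -0.18, -0.22 and -0.19 and rose from HS39 by 0.17 (edgeR adjusted p = 0.0305). The 3 falls did not pass with the narrower exclusion zone, where R1 turned to 0.0073, and the calls from R1 and Hba-2 were also lost without QuadDel replicate 2 and that from R1 without QuadDel replicate 1 or WT replicate 3. The rise from HS39 was lost with the replicate number as a block, DESeq2 size factors, TMM factors and each other exclusion zone, and without QuadDel replicate 2, WT replicate 2 or WT replicate 3. The region before the TAD start (31150253 to 32080070) fell from R2, with 4748, 4421 and 4592 interactions per 100,000 in QuadDel and 5365, 5721 and 5783 in WT, a change of -0.30 ± 0.05 (log2, SE, edgeR adjusted p = 3.72e-05), and also from HS38 (-0.19) and Hba-2 (-0.17). These 3 calls were lost with the narrower exclusion zone, and that from Hba-2 also with the replicate number as a block and without 5 libraries in turn (all but WT replicate 1). The HS-38/-39 window fell from HS38 by -0.16, a call that was lost with the replicate number as a block and a change that turned to 0.011 with the exclusion zone widened by 1 kb.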

How the data were processed

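The authors trimmed reads with Trim Galore, merged them, cut them in silico at DpnII sites, aligned them with Bowtie to mm9 and removed PCR duplicates, and deposited one list per library of raw counts, the unique interactions between a viewpoint and every fragment with at least 1. These counts are not normalised, and nearly all of 83064 fragments on chromosome 11 (99.999%) started at a GATC of the mm9 reference. Groups and replicate numbers come from the labels. The study's methods call the Ter119+ libraries biological replicates. The members, regions and gene lists were chosen with earlier results of these data known. Fragments overlapping a viewpoint's deposited exclusion zone were left out, and the cis total of the rest was the library size. Combined viewpoints and the CD71+ libraries were not used. Counts per fragment, 5 kb bin, gene body (reference annotation) and region were summed by fragment midpoint and tested for QuadDel against WT, separately for each viewpoint, with edgeR 4.0.16 in R 4.3.3 (quasi-likelihood test, mean count of at least 5 except for regions). SE is the log2 fold change divided by the root of F. Adjustment was within a viewpoint, and for regions over all 6. The study used DESeq2, run here as an alternative (1.42.0). For shares, exact permutation tests were run, all two-sided. Named genes are those of 3 lists (upstream, globin, downstream). Named fragments are those of the edited and HS+65/66 motifs and the 3 with the smallest p per viewpoint. The test planned for fragments that are viewpoints could not be run, since they hold no counts. The test was checked on simulated data with a fixed spread between replicates and with rises and falls of equal size. That check does not cover the replicate noise of these libraries. Replicates differed by more than sampling noise (chi-square over its degrees of freedom 1.42 to 2.21). Same-numbered QuadDel and WT libraries did not deviate together over bins (correlation of deviations over 336 bins -0.10, 0.11 and 0.03), so the main test did not use the numbers as pairs. The percentage of interactions in cis, however, rose with the replicate number in both groups from each α-globin viewpoint. From R2 it was 69.3%, 69.7% and 71.1% in QuadDel and 63.4%, 66.0% and 71.3% in WT. Whether the replicate number marks a batch was not tested. The alternatives were other scalings, count minimums, thresholds, bin lengths, exclusion zones, gene flanks, windows and totals, the replicate number as a block, each library left out in turn and, chosen after seeing the data, the 5 kb around the other α-globin promoter left out. Figures were drawn with Python 3.11.15 and matplotlib 3.10.9.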

Additional observations from a re-analysis of the deposited data

Results flagged for a closer look

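The viewpoint at the mitoferrin gene on chromosome 14, which belongs to no comparison above, held between 50943 and 65509 interactions in the QuadDel libraries and between 34400 and 40262 in the WT libraries. It was picked out because the QuadDel libraries lie above every WT library, with a ratio of means of 1.63. The share of its interactions in cis was 75.7% ± 2.02 in QuadDel and 76.3% ± 1.18 in WT (SD, n = 3). The cause was not tested.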

How the results depend on the processing

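Over the alternatives and viewpoints, Sh3pxd2b and Ubtd2 kept their direction and passed in 108 of 108 values each, Stk10 in 105 and Fbxw11 in 101, and the HS+65/66 window, the region over Sh3pxd2b and the region from Ubtd2 to Fbxw11 in 96 of 96 each, with log2 fold changes for the window from 1.23 to 1.81. With the replicate number as a block (replicate block), 81 fragments, 257 bins, 29 genes and 47 regions passed, against 101, 271, 35 and 57 without it. Fewer fragments passed at an adjusted p under 0.01 (59), in the DESeq2 Wald test (51) and with a mean count of at least 20 (22), and likewise fewer bins (174, 159 and 133), of which the last setting tests fewer. Leaving out each library in turn gave 55 to 85 fragments, the lowest without WT replicate 2, and 195 to 251 bins. The split of genes moved from 30 higher and 5 lower to 29 and 10 with DESeq2 size factors and 30 and 15 with 2 kb added on each side of a gene. With a library left out, 30 to 44 genes and 41 to 57 regions passed. Differences between pairs of viewpoints at the HS+65/66 window had 0 of 15 pairs with no overlap, and 1 to 5 when a library was left out. With fewer libraries, groups fail to overlap by chance more often. No difference between viewpoints was read from these counts. The share in the 1 Mb before the TAD start changed sign from HS39, from 0.04 points to -0.042 over 2 Mb, -0.116 with the total taken near the locus and -0.330 with the zone widened by 5 kb, and ran from -0.173 to 0.304 with a library left out. From R1 it turned to 0.193 with a narrower zone, which leaves out a fragment only if it lies inside entirely. That zone also turned the region before the sub-TAD (0.0073) and Hba-x to the sub-TAD end (0.046) from R1 and the enhancer cluster from R2 (-0.036), and widening the zone by 1 kb turned HS-38/-39 from HS38 (0.011). The cause was not tested. With the zone widened by 5 kb, HS-38/-39 gave no value from HS38 or HS39. With a library left out, the region past Fbxw11 lost its call from HS39 (without QuadDel replicate 1 or 3 or WT replicate 1), R1 (replicate 2 of either group) or R2 (QuadDel replicate 1 or 2). Depth limits single fragments and bins far from the locus most.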

Other observations

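Viewpoints on other chromosomes give the calls of the same edgeR test where no site was edited. Of the fragments tested on the viewpoint's own chromosome, 3 of 258 passed an adjusted p under 0.05 from Hbb-b1 and 1 of 197 from Hbb-b2, both β-globin genes, and 22 of 295 from the mitoferrin gene. Together 3.47% of 750 combinations passed, 16 of 26 higher in QuadDel. The share differed by viewpoint, with 1.16% from Hbb-b1, 0.508% from Hbb-b2 and 7.46% from the mitoferrin gene. Over the 6 α-globin viewpoints, 2.75% of tested combinations rose and 2.13% fell in the same test.

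On chromosome 11, 3 genes outside the lists passed, named here after their values were seen. The gene 3010026O09Rik, far downstream at 49987946 to 50013617, was higher in QuadDel from Hba-1 and Hba-2 by log2 fold changes of 1.73 and 1.87, Ankrd43 from R1 by 3.55 and Slit3 from Hba-2 by 0.89. None was called from more than 2 of 6 viewpoints.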
